A study of Triticum aestivum with 122 samples.

Results

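Wheat heads from seed germinated with the brassinosteroid 2,4-epibrassinolide (EBR) were compared with heads from seed germinated with dimethyl sulfoxide (DMSO), the control, at 8 h of 29 °C. The members are the libraries whose labels give this temperature and time: 16 of the 122 samples of the series, of which 8 come from EBR seed (4 floret, 4 rachis) and 8 from DMSO seed (4 floret, 4 rachis). All plants were bread wheat (Triticum aestivum) of cultivar Vida. Seed was exposed to 1 µM of either agent while it germinated for 48 h, the plants were raised at 22 °C, and once they had reached the tetrad stage some pots were transferred to a steady 29 °C. At 8 h the unemerged heads were cut into floret and rachis, the axis that bears the spikelets, so each head gave both libraries and the tissues are not independent. The labels call the samples biological replicates. The reference used for other temperatures and times is always the DMSO group of the same temperature and time. The study also sampled heads at 22 °C and at 0, 16 and 24 h.

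Brassinosteroids are plant steroid hormones that bind a receptor kinase at the cell surface and, through a chain of phosphorylation, release transcription factors that control genes of cell elongation, vascular differentiation and male fertility. In cereals they are known for effects on stature, leaf angle and anther development. The tetrad stage follows meiosis in the anther and is known as a time when heat harms pollen formation. The seed was exposed long before the heads were taken, so the comparison is of a treatment at germination and not of hormone present in the head.

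Genes appear by their ID, because none of the IDs in the deposited table matched an entry of the gene name table used here, and no function is given for any of them. The characters after TraesCS give the chromosome and the subgenome. Bread wheat carries closely similar copies of most genes on its A, B and D subgenomes, and the way reads shared by copies were counted was not stated in the sources read. Values are the authors' normalized counts per gene. Fold changes are EBR minus DMSO on the log2(normalized count + 1) scale, and a gene was called at a Benjamini-Hochberg adjusted p under 0.05 in limma. The 16 libraries held 14.8 to 17.4 M reads in the floret and 13.9 to 17.2 M in the rachis over the genes listed, which cover chromosomes 1 to 4 and part of 5. No pair of replicates among 24 differed as little as sampling noise. In 3 heads of other groups the floret and rachis libraries looked exchanged, judged by genes that differ between the tissues: 1 head each of DMSO at 0 h in the pots kept at 22 °C, DMSO at 0 h in those about to be moved, and EBR at 22 °C, 16 h. They add to the shared estimate of spread, and without them 89 floret and 2068 rachis genes were called at 29 °C, 8 h.

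At 8 h of 29 °C, 49 of 38320 genes were called in the floret (0.128%), of which 44 rose (0.115%) and 5 fell (0.0130%) with EBR seed. In the rachis 1673 of 38883 genes were called (4.30%), of which 862 rose (2.22%) and 811 fell (2.09%). The 4 libraries of each seed group did not overlap in 2862 floret genes (7.47%), 48 of the 49 called genes among them, and in 2630 rachis genes (6.76%), 694 of the 1673 called genes among them. Changes of at least 2-fold were mostly increases: 32 genes rose and 1 fell by that much in the floret, and 414 rose and 201 fell in the rachis. The median fold change over all genes tested was 0.02 for florets and 0.04 for rachis. The rachis count rested on single libraries. It was 40 without DMSO replicate 1, 44 without DMSO replicate 3, 43 without EBR replicate 3 and 82 without EBR replicate 2. It was 8376 without DMSO replicate 4, 5484 without EBR replicate 1, 4047 without EBR replicate 4 and 415 without DMSO replicate 2. The floret count ran from 6 without DMSO replicate 3 to 196 without DMSO replicate 4. It was 10 without DMSO replicate 1, 14 without EBR replicate 2, 24 without EBR replicate 1 and 23 without either EBR replicate 3 or EBR replicate 4. When the spread was estimated from the compared groups alone, 1 floret gene and 0 rachis genes were called by limma, and edgeR on the recovered reads called 31 and 727, while 5856 floret and 11287 rachis genes had an unadjusted p under 0.05 in limma.

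**Figure D1:**
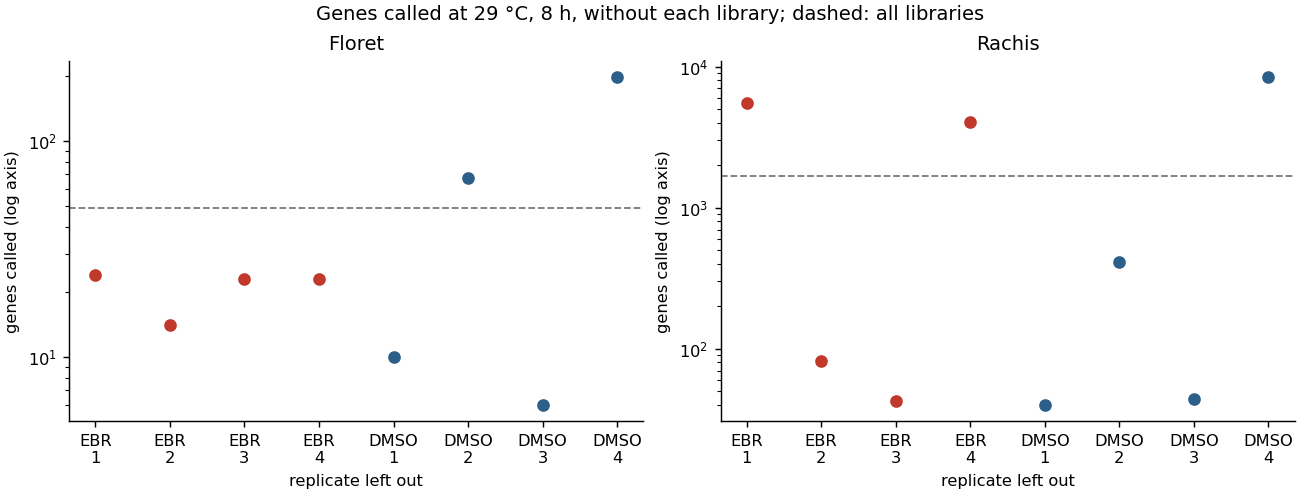
Number of genes called at 29 °C, 8 h (log axis) when each library is left out in turn, EBR libraries in red and DMSO libraries in blue, for floret (left) and rachis (right); the dashed line is the count with all libraries. In the rachis the count lies between 40 and 8376, against 1673 with all libraries.

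The genes that did not depend on any 1 library were few. In the floret 6 genes, all higher with EBR seed, were called in each of the 8 runs that left out a library. In the rachis 27 genes were, of which 20 rose and 7 fell. The 5 genes that met this in both tissues were TraesCS5A03G0211100.1, TraesCS1B03G1066900.1, TraesCS4D03G0183200.1, TraesCS3A03G0639700.1 and TraesCS3D03G0584600.1, and all 5 rose. They were singled out after their values were seen, apart from TraesCS5A03G0211100.1 and TraesCS1B03G1066900.1, which the naming rule also gives.

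TraesCS5A03G0211100.1, on chromosome 5A, had normalized counts of 7877, 9714, 11474 and 8459 in EBR florets, against 326, 1664, 539 and 1893 in DMSO florets. The lowest EBR floret lay above the highest DMSO floret by several-fold, and among the DMSO florets replicates 1 and 3 were the low ones. In the rachis the counts were 18637, 30438, 37501 and 26799.9 with EBR seed, against 1109, 3252, 813 and 7511 with DMSO seed. Here too the groups did not overlap and DMSO replicates 1 and 3 were lowest. The fold change was 3.43 (SE 0.50, adjusted p = 7.47e-05, limma) in the floret and 3.66 (SE 0.52, adjusted p = 6.80e-05, limma) in the rachis. Among all 32 groups of the series, EBR rachis and EBR floret at 29 °C, 8 h had the highest means of this gene, at 28344 ± 7849.7 and 9381 ± 1592 (SD, n = 4 each), followed by EBR rachis at 29 °C, 24 h, at 5320.1 ± 2600.2 (SD, n = 4).

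TraesCS1B03G1066900.1, on chromosome 1B, had few or no reads in most other groups of the series. Its normalized counts in the rachis were 305, 294, 678 and 116 with EBR seed, against 0, 0, 0 and 17.7 with DMSO seed. Every EBR rachis was far above the single DMSO rachis with reads, replicate 4. In the floret they were 14.4, 18, 14.2 and 13 with EBR seed, against 0, 0.962, 0 and 0 with DMSO seed. That is 64 reads in EBR florets and 1 read in DMSO florets, a ratio of 61.7 with an exact 95% interval of 10.7 to 2476 that covers counting error only. The limma fold change was 7.13 (SE 0.76, adjusted p = 8.02e-08) in the rachis and 3.74 (SE 0.39, adjusted p = 3.71e-08) in the floret, and its size depends on the pseudocount because most DMSO libraries are at 0. Among all groups of the series, EBR rachis at 29 °C, 8 h had the highest mean, 348 ± 236 (SD, n = 4), followed by EBR rachis at 29 °C, 16 h, at 20 ± 25.6 (SD, n = 3), and EBR floret at 29 °C, 8 h, at 14.9 ± 2.14 (SD, n = 4). The spread of the 16 h group reached across the EBR floret mean.

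TraesCS4D03G0183200.1, on chromosome 4D, had 388, 341, 689 and 273 normalized counts in EBR rachis, against 4.1, 16.5, 2.07 and 55.1 in DMSO rachis. In the floret it had 63.1, 93.4, 154 and 39 with EBR seed, against 1.07, 9.62, 0.926 and 7.44 with DMSO seed. The groups were apart in both tissues, with DMSO replicates 1 and 3 lowest. The fold change was 5.16 (SE 0.74, adjusted p = 6.80e-05, limma) in the rachis and 4.17 (SE 0.59, adjusted p = 5.03e-05, limma) in the floret.

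TraesCS3A03G0639700.1 and TraesCS3D03G0584600.1 changed less but with little spread. TraesCS3A03G0639700.1 had 548, 633, 525 and 494 normalized counts in EBR florets, against 208, 292, 204 and 232 in DMSO florets, a fold change of 1.24 (SE 0.14, adjusted p = 4.65e-07, limma). In the rachis it had 705, 834, 937 and 593 with EBR seed, against 206, 301, 192 and 396 with DMSO seed, a fold change of 1.53 (SE 0.22, adjusted p = 6.80e-05, limma). No EBR library of either tissue fell within the range of the DMSO libraries. TraesCS3D03G0584600.1 had 567, 596, 526 and 522 in EBR florets, against 262, 305, 239 and 276 in DMSO florets, a fold change of 1.03 (SE 0.13, adjusted p = 1.88e-06, limma). In the rachis it had 652, 740.4, 1032 and 603 with EBR seed, against 245, 418, 208 and 368 with DMSO seed, a fold change of 1.31 (SE 0.19, adjusted p = 6.80e-05, limma). The lowest EBR library lay above the highest DMSO library in both tissues.

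**Figure D2:**
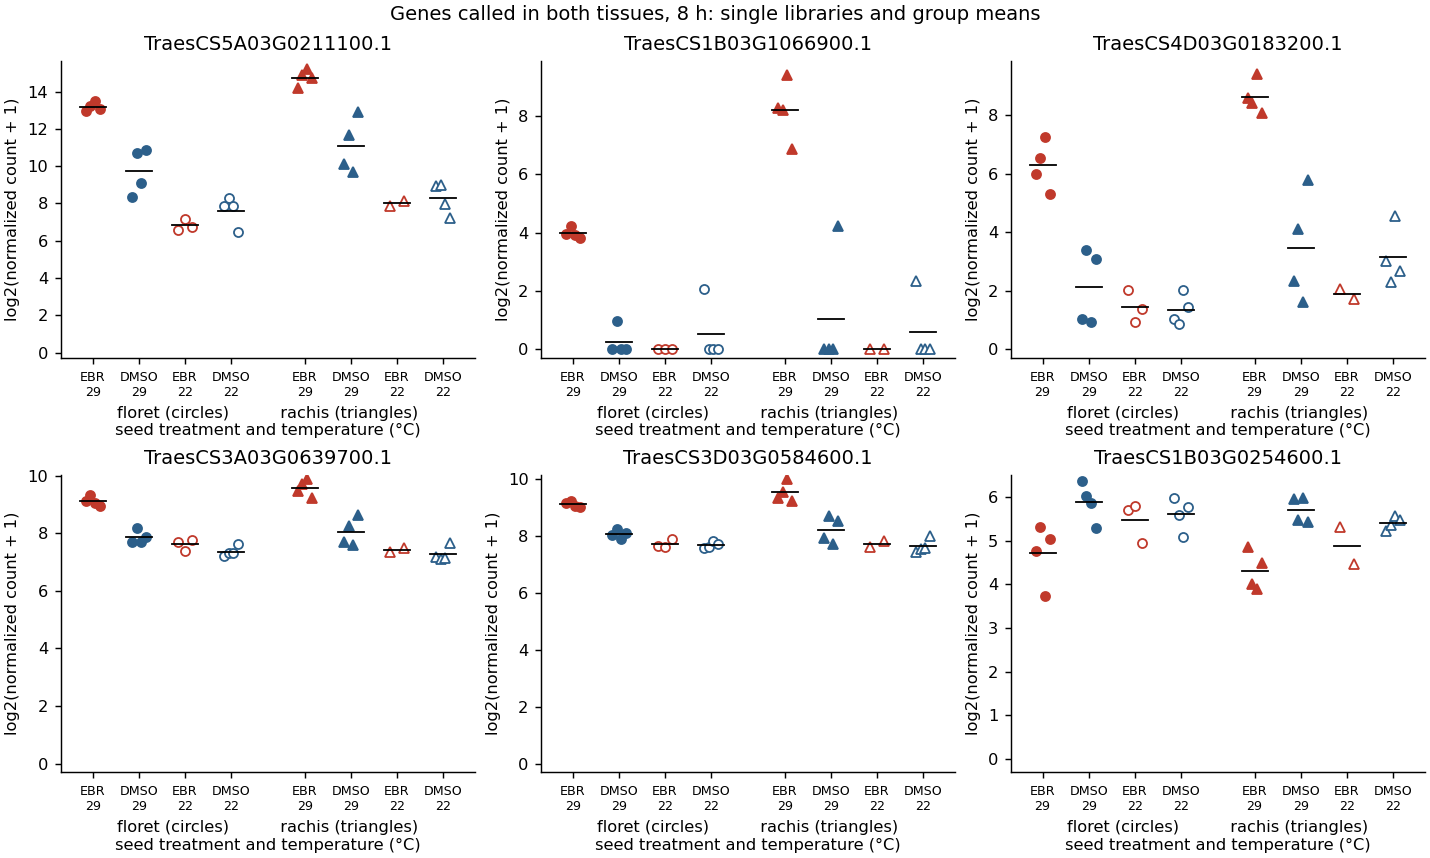
Expression at 8 h of the 5 genes called in both tissues in every run and of TraesCS1B03G0254600.1, as log2(normalized count + 1); each point is a library (red EBR, blue DMSO; filled 29 °C, open 22 °C; circles floret, triangles rachis) and each bar a group mean. The 5 genes are highest in the EBR heads at 29 °C, and TraesCS1B03G0254600.1 is lowest in the EBR rachis at 29 °C, where it had 13.8 to 28.1 normalized counts.

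The sixth gene called in every floret run, TraesCS1D03G0849900.1, was abundant and changed by a small amount. It had 3019, 3217, 3748 and 3118 normalized counts in EBR florets, against 2355, 2347, 2414 and 2481 in DMSO florets, with no overlap and a fold change of 0.44 (SE 0.07, adjusted p = 0.00119, limma). In the rachis its fold change of 0.18 (SE 0.12, adjusted p = 0.341, limma) did not pass the test.

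Of the 48 genes called in the floret that were tested in both tissues, 28 were also called in the rachis, and all 28 moved the same way, 27 up and 1 down. That is 58.3% of the floret calls and 1.70% of the 1644 rachis calls tested in both tissues. The 28 genes lie on 14 of the 15 chromosomes in the table, and in 26 of them the 2 seed groups did not overlap in either tissue. Over all genes tested the groups did not overlap in 7.47% in the floret and 6.76% in the rachis, each tissue taken alone. The 28 were chosen by calls on these same libraries, and 48 of the 49 floret calls did not overlap, so this adds no separate support. The pair named by rule as the largest rises in both tissues were TraesCS5A03G0211100.1 and TraesCS2D03G1043600.1. The second of these had 535, 969, 1274 and 819 normalized counts in EBR florets, against 18.2, 265, 12 and 268 in DMSO florets. In the rachis it had 1916, 2319.5, 1999 and 977 with EBR seed, against 19.5, 294, 26.9 and 593 with DMSO seed. The groups did not overlap in either tissue, but DMSO replicates 2 and 4 were more than 10-fold above DMSO replicates 1 and 3. Its fold change was 3.72 (SE 0.80, adjusted p = 0.0265, limma) in the floret and 4.10 (SE 0.74, adjusted p = 0.00211, limma) in the rachis.

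The most abundant genes called in both tissues, singled out after their values were seen, were TraesCS5B03G0223400.1 and TraesCS5D03G0227200.1. TraesCS5B03G0223400.1 had 22354, 23165, 24639 and 21837 normalized counts in EBR florets, against 2691, 7016, 3374 and 6903 in DMSO florets. Its rachis counts were 46074, 74944, 88849 and 74204 with EBR seed, against 8743, 13519, 5342 and 28297 with DMSO seed. The EBR florets lay within a narrow range, whereas the DMSO libraries of both tissues spread several-fold with replicates 1 and 3 low. TraesCS5D03G0227200.1 averaged 19926 ± 569 in EBR florets and 5074 ± 2119 in DMSO florets, and 66449 ± 16051 in EBR rachis and 14612 ± 9350.4 in DMSO rachis (SD, n = 4 each). The fold changes were 2.33 (SE 0.44, adjusted p = 0.0101, limma) and 2.08 (SE 0.40, adjusted p = 0.0107, limma) in the floret, for TraesCS5B03G0223400.1 and then TraesCS5D03G0227200.1.

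TraesCS1B03G0254600.1 was the only gene called lower in both tissues and was also singled out for that. It had 28.1, 15.2, 13.8 and 21.5 normalized counts in EBR rachis, against 61.4, 43.3, 62.2 and 42 in DMSO rachis. In the floret it had 26.1, 38.6, 12.3 and 32 with EBR seed, against 81.5, 64.5, 57.4 and 38.1 with DMSO seed, where EBR replicate 2 lay just above DMSO replicate 4. The fold change was -1.39 (SE 0.23, adjusted p = 5.34e-04, limma) in the rachis and -1.18 (SE 0.23, adjusted p = 0.0160, limma) in the floret.

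The 2 genes that fell most in the floret by the naming rule were TraesCS4B03G0679200.1 and TraesCS3D03G0925500.1. TraesCS4B03G0679200.1 had 174, 151, 191 and 164 normalized counts in EBR florets, against 284, 247, 317 and 279 in DMSO florets, a fold change of -0.73 (SE 0.15, adjusted p = 0.0198, limma). TraesCS3D03G0925500.1 had 195, 189.5, 206 and 161 in EBR florets, against 255, 237, 281 and 258 in DMSO florets, a fold change of -0.46 (SE 0.10, adjusted p = 0.0337, limma). Neither group pair overlapped in the floret, and in the rachis neither gene passed the test, with fold changes of -0.18 and -0.28.

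In the rachis the naming rule gave TraesCS1B03G1066900.1 and TraesCS2D03G0683200.1 among the genes that rose. TraesCS2D03G0683200.1 had 667, 764, 1251 and 488 normalized counts in EBR rachis, against 2.05, 36.4, 2.07 and 171 in DMSO rachis, a fold change of 5.58 (SE 1.12, adjusted p = 0.00621, limma). The rule gave TraesCS5B03G0022200.1 and TraesCS4B03G0139300.1 among those that fell. TraesCS5B03G0022200.1 had 36.8, 21.3, 7.45 and 31.3 in EBR rachis, against 381, 217, 242 and 49.5 in DMSO rachis, a fold change of -3.03 (SE 0.86, adjusted p = 0.0423, limma). TraesCS4B03G0139300.1 had 301, 85.1, 31.9 and 283 in EBR rachis, against 1239, 578, 1173 and 351 in DMSO rachis, a fold change of -2.56 (SE 0.69, adjusted p = 0.0383, limma). The seed groups of these 3 genes did not overlap, and in each DMSO replicate 4 lay closest to the EBR libraries. In the floret none of the 3 passed the test.

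The tissues were then compared directly. No gene of 40613 passed the test of a difference in EBR effect between floret and rachis in limma (0%), edgeR called 0 as well, and the unadjusted p was under 0.05 for 1665 genes in limma. The larger number of calls in the rachis is therefore not shown to be a difference between tissues. Of the 1644 rachis calls tested in both tissues, 1590 had the same direction in the floret and 1579 had the larger fold change in the rachis. Over the 37058 genes tested in both tissues, 27798 had the same direction, and floret and rachis share their heads. The median fold change of the rachis genes that rose was 0.95 in the rachis and 0.56 in the floret, and of those that fell -0.56 in the rachis and -0.24 in the floret. The rule that chose these genes used the rachis values.

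**Figure D3:**
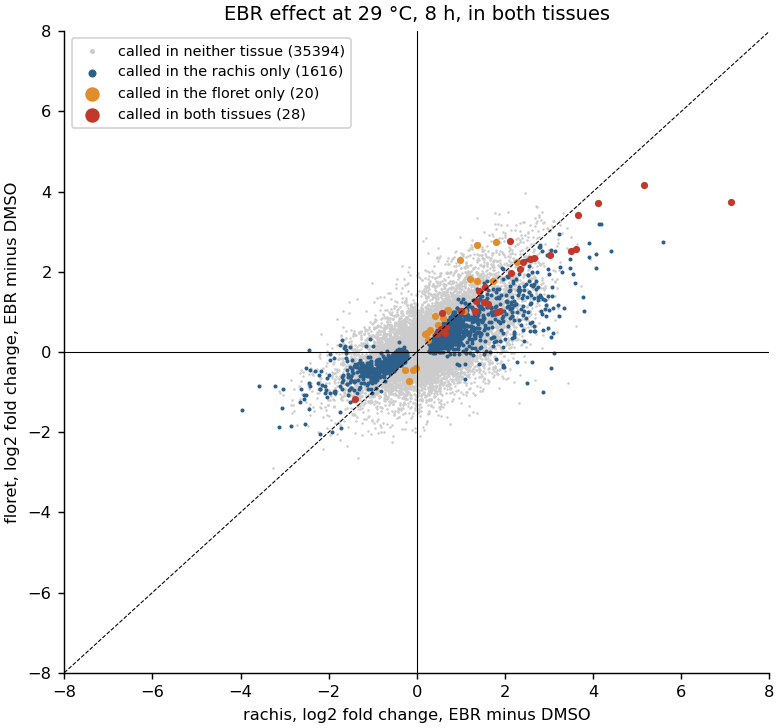
Fold change of EBR against DMSO seed at 29 °C, 8 h, in the rachis (x axis) and the floret (y axis), both log2, 1 point per gene tested in both tissues; colours give where a gene was called and the dashed line marks equal values. The 28 genes called in both tissues lie in the same-sign quadrants, and most rachis calls lie closer to the x axis than the dashed line.

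Heads of the same group differed along a main axis of expression, called the head axis here, which was the first principal component of the differences within groups. Computed without the 16 libraries compared, this component took up 24.3% of the differences among like florets and 25.9% of those among like rachis libraries. The 3 heads whose floret and rachis looked exchanged were kept in, so their libraries enter these shares under their labels. Scores are in units of its SD within groups. The 4 EBR rachis libraries scored 0.00390, 1.61, 2.23 and -0.196 on it, against -2.13, -0.648, -1.89 and 0.746 for the DMSO rachis libraries. DMSO replicates 1 and 3 were the lowest and EBR replicates 2 and 3 the highest. The means were 0.912 ± 1.19 with EBR seed and -0.979 ± 1.32 with DMSO seed (SD, n = 4 each, exact permutation p = 0.114, two-sided). In the floret they were 0.892 ± 0.951 with EBR seed and -0.625 ± 1.49 with DMSO seed (SD, n = 4 each, exact permutation p = 0.171, two-sided). The smallest p that 4 against 4 allows is 0.0286.

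The calls moved with this score. The 862 genes higher in EBR rachis had a mean level, on the log2(normalized count + 1) scale, of 7.59, 8.07, 8.29 and 7.60 in the EBR rachis libraries, against 6.09, 6.75, 6.12 and 7.37 in the DMSO rachis libraries. The 4th DMSO rachis lay near EBR replicates 1 and 4, and DMSO replicates 1 and 3 lay lowest. The 811 genes lower in EBR rachis had mean levels of 8.48, 8.06, 7.76 and 8.40 in EBR rachis, against 9.15, 8.87, 9.16 and 8.57 in DMSO rachis. Both sets were called on these same libraries, so the side on which each seed group lies was fixed by that choice. Within each seed group, the 862 genes were highest in the rachis with the highest score, EBR replicate 3 and DMSO replicate 4. With the score of the same head's other tissue as a covariate, 68 rachis genes and 7 floret genes were called, against 1486 and 47 in the same heads without it. The 27 rachis and 6 floret genes called in every run without a library were all called with the covariate. With the stricter filter, a mean of at least 50, 24 and 4 of them were called, and with the compared groups alone 0 and 1. That filter drops genes by their mean over all libraries of the tissue, so TraesCS1B03G1066900.1 and TraesCS4D03G0183200.1 were not tested under it. With 4 heads a group the seed treatment and the position on this axis cannot be fully told apart.

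**Figure D4:**
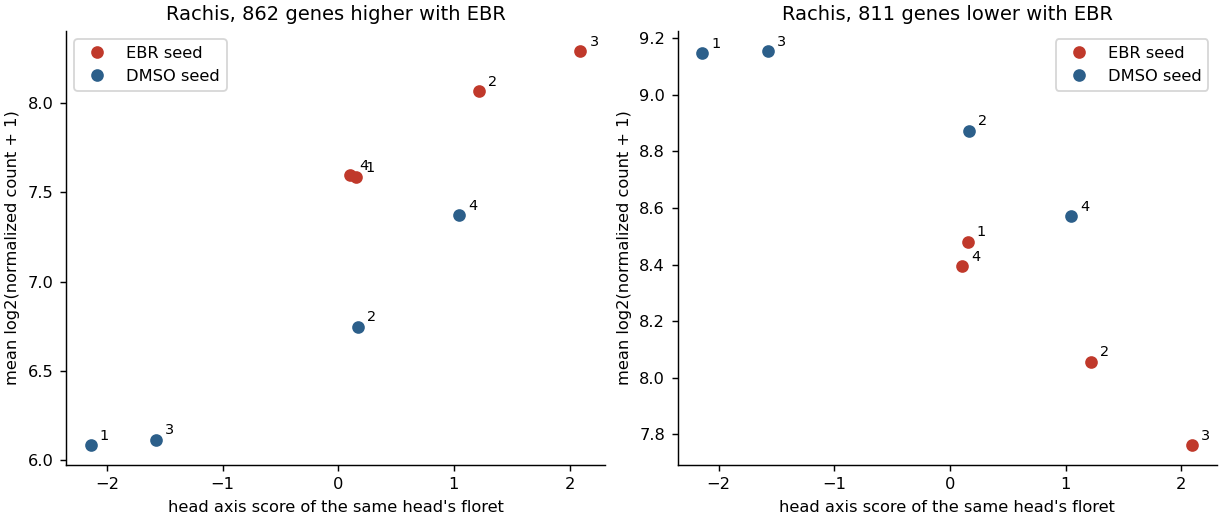
Mean level in the rachis, as log2(normalized count + 1), of the 862 genes called higher (left) and the 811 called lower (right) with EBR seed, against the head axis score of the floret of the same head; each point is 1 head, red for EBR and blue for DMSO, with its replicate number. DMSO heads 1 and 3 stand at the low end of the axis and EBR heads 2 and 3 at the high end. The genes were called on these same rachis libraries, so the gap in level between the seed groups follows from that choice.

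The tissue labels were checked with genes that differed between tissues in DMSO heads at 22 °C, 16 h, 383 higher in floret and 1257 higher in rachis. The difference of their mean log2 levels, floret list minus rachis list, was 0.714, 1.02, 0.748 and 1.03 in EBR florets, against 2.08, 0.688, 1.37 and 1.09 in DMSO florets. In the rachis it was -1.69, -3.73, -4.89 and -2.68 with EBR seed, against -0.369, -1.01, -0.985 and -3.28 with DMSO seed. All 16 libraries thus fell on the side of their label, and the 3 DMSO rachis libraries other than replicate 4 were the least apart from floret. In the EBR against DMSO comparison of the rachis, 1140 of 1255 rachis-enriched genes had a higher mean with EBR seed (median fold change 1.11, with 50 called higher, 3.98% against 2.22% of all rachis genes, and 1 lower) and 241 of 317 floret-enriched genes a lower one (median -0.80, with 7 called lower, 2.21% against 2.09% of all rachis genes), beside a median of 0.04 over all genes. With the head axis covariate the medians were 0.62 and -0.45. In the floret the medians were 0.32 for the rachis-enriched genes and -0.14 for the floret-enriched ones. How much the content of either tissue contributes to the rachis calls was not tested, and in bulk tissue fewer cells of a type and less RNA per cell cannot be told apart.

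The EBR effect at 29 °C was next set against that at 22 °C, both at 8 h, where the EBR group at 22 °C has 3 floret and 2 rachis libraries. In the floret 8 of 38320 genes (0.0209%) differed, 7 of them (0.0183%) with a higher and 1 (0.00261%) with a lower effect at 29 °C. TraesCS5A03G0211100.1 led those the rule names, with a difference of 4.20 (SE 0.73, adjusted p = 0.00745, limma): it averaged 115 ± 25.4 in EBR florets (SD, n = 3) and 214 ± 92 in DMSO florets at 22 °C (SD, n = 4). TraesCS2D03G1015800.1 had a difference of 1.67 (SE 0.32, adjusted p = 0.0254, limma), with 157, 159, 139 and 140.1 normalized counts in EBR florets at 29 °C, against 55.8, 91.4, 52.8 and 99.5 in DMSO florets at 29 °C. TraesCS2D03G1078300.1, the gene with a lower effect at 29 °C, averaged 2.13 normalized counts over the 16 libraries compared and was named only because it was alone. In the rachis 5 of 38883 genes (0.0129%) differed, all with a higher effect at 29 °C, and edgeR called 0 while 6774 had an unadjusted p under 0.05 in limma. They were TraesCS2D03G0683200.1 with a difference of 9.39 (SE 1.77), TraesCS1B03G1066900.1 with 7.71 (SE 1.20), TraesCS4D03G0183200.1 with 6.41 (SE 1.17), TraesCS5B03G0624900.1 with 5.63 (SE 1.07) and TraesCS5A03G0958800.1 with 2.74 (SE 0.48), and the last 3 lie outside the naming rule and are named with their values already known, since the count is small. The adjusted p values were 0.0265, 0.00225, 0.0207, 0.0271 and 0.0147 in that order (limma). At 22 °C TraesCS2D03G0683200.1 averaged 0.534 ± 0.756 in EBR rachis (SD, n = 2), with 1 read in all. It averaged 31.9 ± 29.0 in DMSO rachis there (SD, n = 4). Its effect at 29 °C alone was 5.58, so part of the difference rests on 22 °C values near 0 in 2 libraries. Both counts rested on single libraries, and the rachis count was 0 without EBR replicate 2 of 22 °C and 713 without DMSO replicate 4 of 29 °C. The floret count was 2 without DMSO replicate 1 of 29 °C and 103 without DMSO replicate 4 of 22 °C.

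Between 8 and 24 h of 29 °C the EBR effect differed in 23352 of 38320 floret genes (60.9%) and in 23562 of 38883 rachis genes (60.6%). The difference, 8 h minus 24 h, was positive in 13121 of these floret genes (34.2%) and negative in 10231 (26.7%), and positive in 13184 (33.9%) and negative in 10378 (26.7%) in the rachis. Of the 44 genes higher with EBR seed in the 8 h floret, 43 had a lower EBR mean at 24 h, where 29 were called lower (36.4% of all floret genes were). Of the 862 in the rachis, 770 had a lower EBR mean at 24 h, where 575 were called lower (33.1% of all rachis genes were), and of the 811 lower ones 765 had a higher EBR mean, with 675 called higher (27.5% of all rachis genes were). At 29 °C, 16 h, 36 of the 44 and 714 of the 862 still had a higher EBR mean. The groups differed on the head axis at 24 h as well, but the other way: EBR florets averaged -1.17 ± 0.863 and DMSO florets 3.79 ± 0.0862 (SD, n = 4 each). With the covariate the counts that differed between 8 and 24 h were 5701 in the floret and 2878 in the rachis. The direction was also opposite at 22 °C, 24 h, with no move to 29 °C. There 757 of the 862 had a lower EBR mean, with 82 called lower (9.51%, against 3.77% of all rachis genes). Of the 811, 775 had a higher one, with 306 called higher (37.7%, against 6.23%). Of the 44 floret genes 36 had a lower one, with 9 called lower (20.5%, against 6.11% of all floret genes). At 22 °C, 16 h a lower EBR mean was found for 735 of the 862 and 20 of the 44.

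Under 29 °C, TraesCS4D03G0183200.1 turned in the floret, with an EBR effect of 4.17 at 8 h and -3.62 (SE 0.59, adjusted p = 7.66e-07, limma) at 24 h. In the rachis its effect at 24 h was -0.20 (SE 0.74, adjusted p = 0.833, limma). TraesCS3D03G0584600.1 turned in both tissues, with -0.44 (SE 0.13, adjusted p = 0.00256, limma) in the floret and -1.16 (SE 0.19, adjusted p = 1.05e-06, limma) in the rachis at 24 h. TraesCS3A03G0639700.1 was called lower in the floret only (-0.35, and -0.39 in the rachis). Neither TraesCS1B03G1066900.1 (-0.04 in the floret, -1.27 in the rachis) nor TraesCS5A03G0211100.1 (-0.85 and 0.87) was called at 24 h. TraesCS5B03G0223400.1 kept its direction in the rachis, with an EBR effect of 1.50 (SE 0.39, adjusted p = 9.29e-04, limma) at 24 h.

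**Figure D5:**
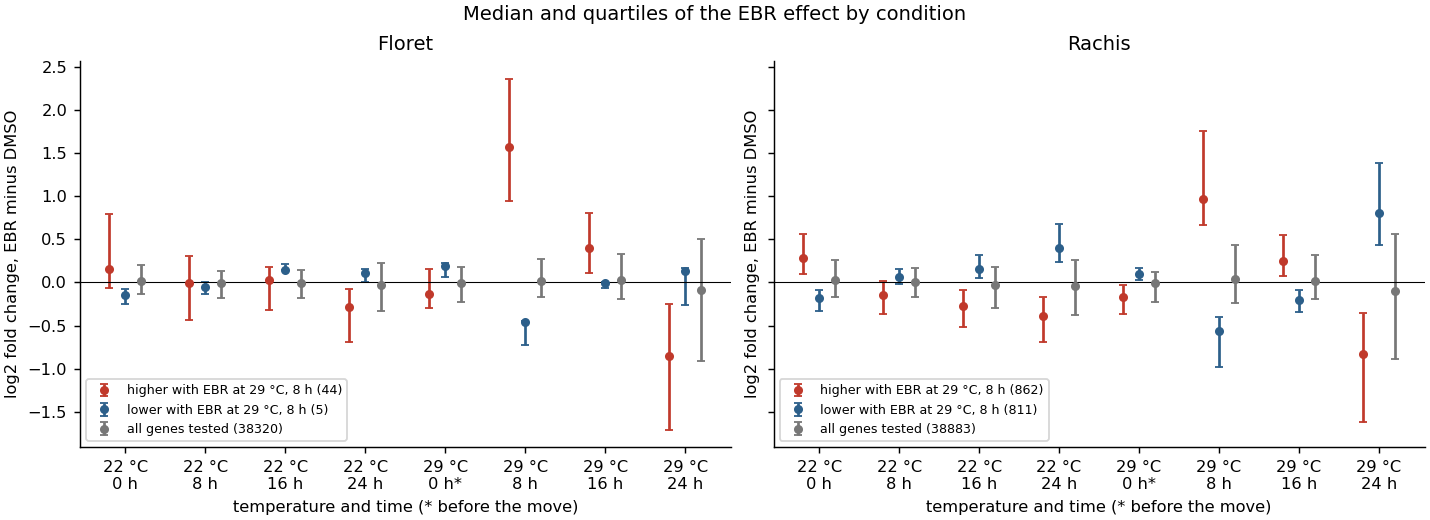
EBR effect (log2 fold change, EBR minus DMSO) in each temperature and time, as median and quartiles over genes, for the genes called higher (red) and lower (blue) at 29 °C, 8 h and for all genes tested (grey), floret left and rachis right. The genes higher at 29 °C, 8 h have medians of 1.57 in floret and 0.97 in rachis there, and of -0.86 and -0.83 at 29 °C, 24 h. At 22 °C, 24 h their medians are -0.29 and -0.39.

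Before the move the direction of the same rachis genes differed between the sets of pots. In heads of pots kept at 22 °C, 728 of the 862 had a higher EBR mean at 0 h, against 53.6% of all rachis genes. In heads of the pots about to be moved 173 did, against 47.8% of all rachis genes. Without the heads whose tissues looked exchanged, 1 in each DMSO group at 0 h, the counts were 721 and 119. At 22 °C, 8 h, 22 of the 44 floret genes and 238 of the 862 rachis genes had a higher EBR mean, against 48.2% and 50.1% of all genes. In none of these conditions was any of the 862 called, which is not particular to them. Over all 38883 rachis genes 1 was called at 0 h in pots kept at 22 °C, and 0 in the other conditions. Of the 44 floret genes 1 was called higher at 22 °C, 8 h (2.27%, against 0.0235% of all floret genes). The rachis groups also differed on the head axis. EBR averaged -0.259 and DMSO -1.09 at 0 h in pots kept at 22 °C. The means were -0.503 and 0.197 at 0 h in pots about to be moved, and -1.97 and -1.41 at 22 °C, 8 h. How far the directions follow this axis was not tested.

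Genes that heat itself moved were described next. In the floret 91 genes rose with heat at both 16 and 24 h in both seed treatments, and at 8 h of 29 °C their median EBR effect was 0.03, with 2 called higher (2.20%, against 0.115% of all floret genes). Their mean log2 level was 9.57 ± 0.0319 in EBR florets and 9.46 ± 0.0157 in DMSO florets at 29 °C (SD, n = 4 each), and 8.76 ± 0.00904 (SD, n = 3) in EBR florets and 8.82 ± 0.00952 (SD, n = 4) in DMSO florets at 22 °C. The 4 EBR florets at 29 °C lay between 9.55 and 9.62 and the 4 DMSO florets between 9.45 and 9.49, without overlap. At 22 °C the groups did not overlap either, but EBR florets were the lower, at 8.75 to 8.77 against 8.81 to 8.83. How often the mean of a list separates in this way was not tested. Of the 62 floret genes that fell with heat, 42 had a lower EBR mean (median -0.05), and limma and edgeR each called 0, with 13 at an unadjusted p under 0.05 in limma. The 43 heat-raised genes of the rachis had a median EBR effect of 0.02, and both tools called 0, with 8 at an unadjusted p under 0.05 in limma. Their mean log2 levels overlapped at 29 °C, at 9.47 to 9.56 in EBR rachis and 9.45 to 9.51 in DMSO rachis. Chosen without the exchanged-looking heads, the heat-raised lists held 108 floret and 34 rachis genes, with medians of 0.03 and 0.02. Of the 37 rachis genes that fell with heat, 6 were called lower (16.2%, against 2.09% of all rachis genes) and 1 higher (2.70%, against 2.22%) with EBR seed.

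Genes that differed between times at 22 °C in DMSO heads had larger medians. The 16 h and 0 h groups that gave the first lists also differed on the head axis. In the floret they averaged 0.53 ± 1.49 and -1.10 ± 0.84, and in the rachis 0.46 ± 1.43 and -1.09 ± 0.29 (SD, n = 4 each). Time and position on this axis cannot be told apart in these lists. Of 523 floret genes higher at 16 h than at 0 h, 450 had a higher EBR mean at 29 °C, 8 h, with a median fold change of 0.50 and 5 called higher (0.956%, against 0.115% of all floret genes). With the head axis covariate that median was -0.09. Of 107 such rachis genes 89 had a higher EBR mean, with a median of 0.42, or 0.23 with the covariate, and 17 called higher (15.9%, against 2.22% of all rachis genes) and 6 lower (5.61%, against 2.09%). Chosen without the exchanged-looking head at 0 h and those of other groups, the lists held 254 floret genes, of which 193 had a higher EBR mean (median 0.28), and 44 rachis genes, of which 37 did (median 0.34).

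Calls were spread over the genome. In the rachis the share called ran from 3.59% on chromosome 3B to 5.05% on 4B, and it was 4.45% on the A, 4.17% on the B and 4.30% on the D subgenome. It rose with expression level, from 1.73% of genes under 50 normalized counts on average to 9.09% of those over 1000. In that most abundant class 205 genes were called lower (6.34%) and 89 higher (2.75%), whereas under 50 the calls were 59 lower (0.418%) and 185 higher (1.31%). Over all genes of these classes, called or not, the median fold changes were -0.11 over 1000 and 0.19 under 50. A higher EBR mean was found for 40.3% and 60.7% of these genes, so each class held genes of both directions. In the floret these medians were -0.08 and 0.12.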

How the data were processed

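RNA of poly(A)-selected libraries was sequenced from floret and rachis. What the authors deposited is 1 table of signal, which its name calls normalized counts, with a value per gene for each library. Per the submitters' processing notes, the tools included STAR, featureCounts, DESeq2 and Trimmomatic 0.36, with no roles stated. The genome build was not given in the sources used here. Values in every library were whole reads (100% within 0.01) once a single factor was removed. Of 55578 entries 1 was incomplete, and 55577 entries of 53798 gene IDs were used. None of them matched the 155467 entries of the gene name table, so name-based gene and marker lists could not be applied. Of 122 samples 121 have a column.

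The log2(normalized count + 1) values were fitted in limma (3.58.1, under R 4.3.3) by group means with a spread shared by the groups of a tissue. Genes needed at least 3 libraries with values of 10 or more. Tests were two-sided. The rule for naming genes took, per comparison, up to 2 called genes each way with the largest change and a mean of at least 50, without overlap between the seed groups at 8 h of 29 °C. The members and lists were chosen with earlier results of these data known. The number in the library names differs between every combination of seed, temperature and time, and the labels do not say what it stands for. Residuals of the floret and rachis of the same head had correlations of 0.130 to 0.607 in the 8 heads compared, so the head pairs the tissues. Alternatives were pseudocounts of 0.5 and 5, no filter, a mean of at least 50, trimmed mean of M-values (TMM) factors, the compared groups alone, edgeR 4.0.16 quasi-likelihood on whole reads, each library left out, a replicate block and the head axis covariate. Added after seeing the data were runs and lists without 3 heads whose floret and rachis looked exchanged, the covariate's heads without the covariate, and tissue lists from 16 h. In simulated counts, the fit called 80% of 100 genes set to a 2-fold change in the floret (36483 genes) and 71% in the rachis (37262 genes). The changed genes had a mean of at least 50, and 13 and 9 unchanged genes were also called. Genes were drawn independently, without a head axis, so these shares do not give the power of the test in the real libraries.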

Additional observations from a re-analysis of the deposited data

Results flagged for a closer look

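A single library was flagged as apart from the other 3 of its group in 4 of 104 groups of 4 tested. Chance flags about 1 in 20 where values are not tied. TraesCS1B03G1066900.1 had 17.7 normalized counts in DMSO rachis replicate 4 at 29 °C, 8 h, and 0.962 in DMSO floret replicate 2, while the other DMSO libraries of each tissue were at 0. With the other 3 tied at 0 any value above 0 is flagged, and the 0.962 is 1 read. In DMSO rachis replicate 1 TraesCS2A03G0123800.1 had 1.02 and TraesCS4A03G0099900.1 had 3.07, below the other DMSO rachis libraries.

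The EBR effect at 8 h differed between 29 and 22 °C by the test of the difference in 8 floret genes, among them TraesCS5A03G0211100.1 (4.20 on the log2 scale) and TraesCS2D03G1015800.1 (1.67), and in 5 rachis genes, among them TraesCS2D03G0683200.1 (9.39) and TraesCS1B03G1066900.1 (7.71). The 9.39 rests in part on 22 °C, where the 2 EBR rachis libraries held 1 read of that gene.

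Between 8 and 24 h of 29 °C it differed in 23352 floret and 23562 rachis genes. Those the naming rule gives in the floret, as 8 h minus 24 h on the log2 scale, were TraesCS4A03G0136300.1 (12.83), TraesCS4D03G0673200.1 (12.49), TraesCS4D03G0747100.1 (-7.30) and TraesCS1A03G0001400.1 (-6.69). In the rachis they were TraesCS2A03G0123800.1 (13.80), TraesCS4A03G0099900.1 (13.78), TraesCS2A03G0168200.1 (-9.23) and TraesCS5D03G0820300.1 (-9.09). At 8 h none of these 8 passed the test in the floret, and in the rachis TraesCS4D03G0747100.1 and TraesCS5D03G0820300.1 did.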

How the results depend on the processing

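Pseudocounts of 0.5 and 5 and TMM factors kept both main counts of EBR against DMSO seed at 29 °C, 8 h within 1.5 times. The floret count of 49 became 7 with the head axis covariate, 1 with the compared groups alone, 31 with edgeR and 89 without the 3 heads. The rachis count of 1673 became 501 with no filter, 2760 with the stricter filter (1218 higher and 1542 lower), 1051 with the replicate block, 68 with the covariate (53 higher and 15 lower), 0 with the compared groups alone, where fewer libraries enter, and 727 with edgeR. Without a library the counts were 6 to 196 in the floret and 40 to 8376 in the rachis. The tissue difference was 2 with a pseudocount of 5, 0 to 1 without a head, and 0 in the remaining runs, the replicate block by head included. For the EBR effect at 29 minus 22 °C, the floret count of 8 became 5 with the stricter filter, 13 with the replicate block, 30 without the 3 heads, 1 with the covariate, 5 in the same heads without it, 20 with the compared groups alone and 4 with edgeR, and was 2 to 103 without a library. The rachis count of 5 became 8 with a pseudocount of 0.5, 18 with no filter, 2 with the stricter filter, 3 with the replicate block, 8 without the 3 heads, 2 with the covariate, and 0 with the compared groups alone and with edgeR, and was 0 to 713 without a library. For 8 minus 24 h the counts became 5701 in the floret and 2878 in the rachis with the covariate, and without a library were 21918 to 23648 and 21770 to 24343. By edgeR the floret split was 10976 higher to 11657 lower, and the rachis split 11791 to 11339. TraesCS2A03G0168200.1 and TraesCS5D03G0820300.1 turned from negative to 0.31 and 0.22 in the rachis with the covariate. Apart from the smaller fits, the cause was not tested. EBR and DMSO libraries of the same number showed no common direction of deviation (correlations of 0.283, 0.0691, -0.160 and -0.398 between florets, then 0.261, 0.0999, -0.240 and -0.494 between rachis libraries, for replicates 1, 2, 3 and 4). Pairing by number was therefore not assumed in the main tests, but with 4 libraries a group these values cannot exclude it. At 13.9 to 17.4 M reads a gene with few reads has a fold change that depends on the pseudocount.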
